A study of Mus musculus with 6 samples.

Results

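Ifitm2 and Ifitm3 encode interferon-induced transmembrane proteins, small proteins of the CD225 family that sit in cell membranes. Both genes were taken from the authors' deposited table by their gene names, and they are 2 of the 1386 entries in it. The RNA came from epithelial cells of the intestine of wild-type (WT) mice on normal chow, and the series title places the work in the jejunum. From 8 weeks of age the mice received either the gut bacterium Akkermansia muciniphila (Akk), which feeds on mucus, by gavage, at 400000000 bacteria a day for 7 weeks, or PBS, the carrier, with 3 libraries in each group. The question of the comparison was how daily Akk changes the epithelial transcriptome. Whether the libraries come from separate mice is not stated in the labels, and p-values then measure only the spread between these libraries, part of which may be technical. Ifitm3 was 7.41-fold and Ifitm2 2.43-fold higher in PBS replicates 1 and 3 than in Akk, and PBS replicate 2 lay above these by a further 3.76-fold and 10.6-fold.

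IFITM proteins act against enveloped viruses at the step of entry, where they hinder fusion of the viral and the cellular membrane. IFITM3 does so mainly in late endosomes and lysosomes, and IFITM2 is a close paralogue that is also found on endosomes. Interferons raise the transcription of such genes through receptors and kinases that activate transcription factors, and a complex that contains IRF9 binds the interferon-stimulated response element (ISRE) in their promoters. Interferon gamma acts through another sequence, the gamma-activated site. In the intestine, Ifitm genes have also been described as active in crypts and as targets of Wnt signalling.

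The 2 genes lie on the minus strand of chromosome 7 (GRCm38, the assembly that mm10 names), 53598 bases apart in a cluster of family members. Ifitm3 (ENSMUSG00000025492) spans chr7:141009586-141010770 and Ifitm2 (ENSMUSG00000060591) chr7:140954837-140955987. Each has 2 exons, with transcripts of 678 and 655 bases. Because both genes were listed as lower in Akk, the bases just before each GENCODE transcript are shown, from RefSeq (GRCm38.p6), with matches to the ISRE core (GAAA, 2 bases of any kind, GAAA) in capitals. The Ifitm3 stretch is chr7:141010771-141010994 and the Ifitm2 stretch chr7:140955988-140956211, both read on the minus strand.
Ifitm3: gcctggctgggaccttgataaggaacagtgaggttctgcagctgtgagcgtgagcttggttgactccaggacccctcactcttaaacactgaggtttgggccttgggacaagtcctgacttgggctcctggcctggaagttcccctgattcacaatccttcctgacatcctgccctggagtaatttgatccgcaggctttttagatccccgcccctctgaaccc
Ifitm2: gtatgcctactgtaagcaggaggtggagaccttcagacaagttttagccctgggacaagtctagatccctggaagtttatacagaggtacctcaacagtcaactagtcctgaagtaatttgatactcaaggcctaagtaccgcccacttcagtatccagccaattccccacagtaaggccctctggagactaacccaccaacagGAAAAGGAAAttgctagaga

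In a global alignment, these stretches of 224 bases were identical at 119 of 247 columns (48.2%). The Ifitm2 stretch holds 1 ISRE match, whose first base is at -20 from the GENCODE start. The Ifitm3 stretch holds none, since its 2 matches lie further in, in the 5′ UTR part of exon 1, with first bases at 29 and 46 of the transcript. The 30-base sites around these matches, chr7:141010715-141010744 for Ifitm3 and chr7:140955980-140956009 for Ifitm2, show the first match with the same letters in both genes and a second match in Ifitm3 alone.
Ifitm3 site: agGAAAAGGAAActtctgaGAAACCGAAAc
Ifitm2 site: agGAAAAGGAAAttgctagagaaagggcgg

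The sites were identical at 18 of 30 positions without gaps. Counted on both strands, an ISRE match occurs in 2.98% of the 32851 promoters in the RefSeq table within 250 bases before the RefSeq start, and in 3.44% once the 50 bases after it are included. The RefSeq start of both genes is 26 bases further into the gene than the GENCODE start, so the Ifitm3 matches fall only in the longer window. The Ifitm3 window also holds a match to the gamma-activated site (TTCNNNGAA, found in 8.30% of the 300-base windows), which starts between the 2 ISRE matches and overlaps the second. No match to the TCF/LEF core CTTTGAT was found in either window (3.73% of all windows hold one), and Ifitm2 has a match to the TATA letters TATAAA on the opposite strand, far from the start at -175 (13.6% of all windows hold one). Of the other 5 family members, none has an ISRE match in its windows. These matches describe letters and are not evidence of binding.

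The coding sequences of the paralogues are alike, which bears on how reads can be assigned. They were identical at 332 of 438 alignment columns (75.8%), and the longest run the transcripts share without a mismatch has 69 bases. It lies in coding exon 1 of both, at chr7:141010445-141010513 in Ifitm3 and chr7:140955718-140955786 in Ifitm2, and is printed because a read that falls wholly within it fits both genes.
Shared run: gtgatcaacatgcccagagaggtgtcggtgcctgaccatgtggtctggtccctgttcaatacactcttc

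Cut into words of 50 bases, 3.18% of the Ifitm3 transcript recurs in Ifitm2 and 2.38% in Ifitm1. Words of Ifitm3 recur in the transcripts of 5 other genes, with at most 4.61% in any of them (the processed pseudogene Gm7676). Ifitm2 shared more of its sequence: 36.1% of its words are also in Gm45717, a protein-coding model at chr7:140949222-140955937 that overlaps it on the same strand, and 14.9% are in the processed pseudogene Gm11951 on chromosome 11. How the authors' counting treated such reads is not given in the sources used here, so the level of Ifitm2 is the less certain of the 2.

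Both genes were listed as lower in Akk. The genes of the table were selected on the authors' p (at most 0.0498) and fold (at least 1.50) between these same 6 libraries. The listing, the direction and every difference between Akk and PBS below were fixed by that choice and are given as descriptions. The edgeR calls given for gene lists further below were made on these selected genes. They are descriptions too and are no support for a difference. In the authors' deposited table, Ifitm3 has p = 1.71e-11 and a log2 fold change of -2.68, the most negative of the 1040 genes listed as lower. For Ifitm2 the authors' deposited table gives p = 0.00125 and a log2 fold change of -1.63, in place 55 of the 1040. The edgeR fits below, scaled by library depth, gave more negative values on the same libraries, -3.83 for Ifitm3 and -3.34 for Ifitm2. The reason for this gap was not tested. Genes just outside the thresholds are not analysed here.

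The whole table is marked by a single library. PBS replicate 2 was the highest of the 6 libraries for 1022 of the 1040 genes listed as lower, by a median of 5.55-fold over the mean of PBS replicates 1 and 3. FPKM is a count scaled to gene length and library depth, and the depth that it implies together with the counts was 23457478 to 29245814 fragments per library, an approximate figure since it rests on annotated exon lengths. Values are therefore given with PBS replicate 2 and without it.

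Ifitm3 had an FPKM of 27.97, 118.4 and 35.03 in PBS replicates 1 to 3, from 707, 2703 and 932 counts. It had 4.39, 5.38 and 2.99 FPKM in Akk replicates 1 to 3, from 125, 144 and 75 counts. The groups did not overlap: the lowest PBS library was 5.20-fold above the highest Akk library, and PBS replicate 2 stood 3.76-fold above the mean of PBS replicates 1 and 3. Every PBS library lay above every Akk library for 65% of all listed genes, and for 901 of the 1040 listed as lower. The lack of overlap by itself therefore does not set Ifitm3 apart.

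Group means of Ifitm3 were 4.25 ± 1.20 FPKM in Akk and 60.5 ± 50.3 in PBS (SD, n = 3), 14.2-fold higher in PBS. PBS replicates 1 and 3 alone had a mean of 31.5 FPKM, 7.41-fold above Akk, and differed from each other by 1.25-fold. The log2 fold change fitted to the counts by edgeR (Akk over PBS) was -3.83 (SE 0.79), and -2.89 (SE 0.29) without PBS replicate 2. Most of the SD in PBS came from PBS replicate 2, and the other 2 PBS libraries were close to each other and far above Akk.

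Ifitm2 had an FPKM of 6.01, 88.7 and 10.8 in PBS replicates 1 to 3, from 147, 1957 and 278 counts. In Akk replicates 1 to 3 it had 2.81, 3.87 and 3.70 FPKM, from 78, 100 and 90 counts. Here too all PBS libraries were above all Akk libraries, but the lowest PBS library exceeded the highest Akk library by only 1.55-fold, and PBS replicate 2 stood 10.6-fold above the mean of the other PBS libraries.

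Group means of Ifitm2 were 3.46 ± 0.568 FPKM in Akk and 35.2 ± 46.4 in PBS (SD, n = 3), 10.2-fold higher in PBS. With PBS replicates 1 and 3 alone the PBS mean was 8.41 FPKM, 2.43-fold above Akk. The log2 fold change fitted to the counts was -3.34 (SE 1.10), and -1.28 (SE 0.32) when PBS replicate 2 was left out. The size of the Ifitm2 difference therefore depended on PBS replicate 2 much more than that of Ifitm3 did. The Akk libraries were close together for both genes, with the highest 1.80-fold above the lowest for Ifitm3 and 1.38-fold for Ifitm2.

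**Figure D1:**
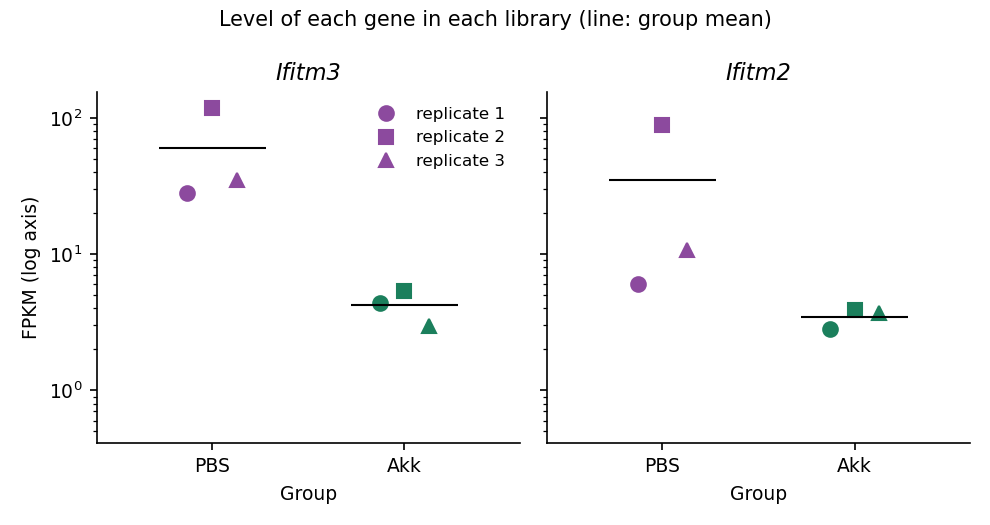
FPKM (log axis) of Ifitm3 and Ifitm2 in the 3 PBS and 3 Akk libraries, with symbols for replicates 1 to 3 and a line at the group mean. PBS replicate 2 is the highest library for both genes (118.4 and 88.7 FPKM). PBS replicates 1 and 3 lie well above Akk for Ifitm3 and nearer to it for Ifitm2.

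FPKM is computed from the counts, so both give the same differences between libraries by construction. The count per FPKM, divided by the relative depth of the library, was 25.76 to 25.83 for Ifitm3 and 24.90 to 25.08 for Ifitm2 across the 6 libraries. In bulk RNA, fewer cells that express a gene and less RNA per cell cannot be told apart.

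The balance between the paralogues was not constant. On the per-length FPKM scale, the ratio of Ifitm3 to Ifitm2 was 4.65 in PBS replicate 1, 1.33 in PBS replicate 2 and 3.24 in PBS replicate 3. In Akk replicates 1 to 3 it was 1.56, 1.39 and 0.808. PBS replicates 1 and 3 thus had the highest ratios, while PBS replicate 2, the library with the highest level of both genes, fell among the Akk libraries.

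As a share of the summed counts of both genes, which is independent of library depth, Ifitm3 made up 82.8% in PBS replicate 1 (95% Wilson interval 80.1% to 85.2%) and 77.0% in PBS replicate 3 (74.6% to 79.3%). PBS replicate 2 had 58.0% (56.6% to 59.4%). Akk replicates 1 to 3 had 61.6% (54.7% to 68.0%), 59.0% (52.8% to 65.0%) and 45.5% (38.0% to 53.1%). The intervals cover counting error only, and those of PBS replicates 1 and 3 lie above those of the other 4 libraries. The mean log2 ratio of FPKM (pseudocount 0.1) was 0.26 ± 0.49 in Akk and 1.43 ± 0.92 in PBS (SD, n = 3), a difference of -1.17 that was -1.68 without PBS replicate 2. That difference comes from the contrast that chose the genes and was not tested.

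**Figure D2:**
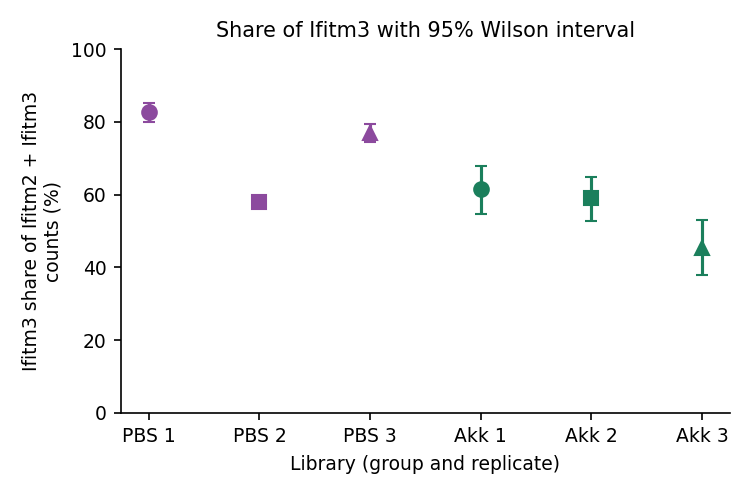
Ifitm3 counts as a percentage of Ifitm2 plus Ifitm3 counts in each library, with 95% Wilson intervals. PBS replicates 1 and 3 (82.8% and 77.0%) lie above PBS replicate 2 (58.0%) and the 3 Akk libraries (45.5% to 61.6%).

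Among the genes listed as lower, Ifitm3 stood near the end of the range once PBS replicate 2 was set aside. Of 1027 such genes with a mean count of at least 50, a single one, Ifi27l2a, had a larger difference between the mean of PBS replicates 1 and 3 and the mean of Akk (log2 of FPKM + 0.1; 3.06 for Ifi27l2a and 2.86 for Ifitm3, against a median of 0.71). In none of the 1027 was the lowest PBS library further above the highest Akk library. The excess of PBS replicate 2 over the other PBS libraries was smaller for Ifitm3 than for 728 of these genes (log2 1.91 against a median of 2.48).

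Ifitm2 had a log2 difference of 1.26 between PBS replicates 1 and 3 and Akk, and 67 of the 1027 genes had a larger one. Its excess in PBS replicate 2 was 3.38 on the log2 scale, with 173 genes above it. It therefore combined a difference between PBS and Akk above the median with an excess in PBS replicate 2 above the median.

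**Figure D3:**
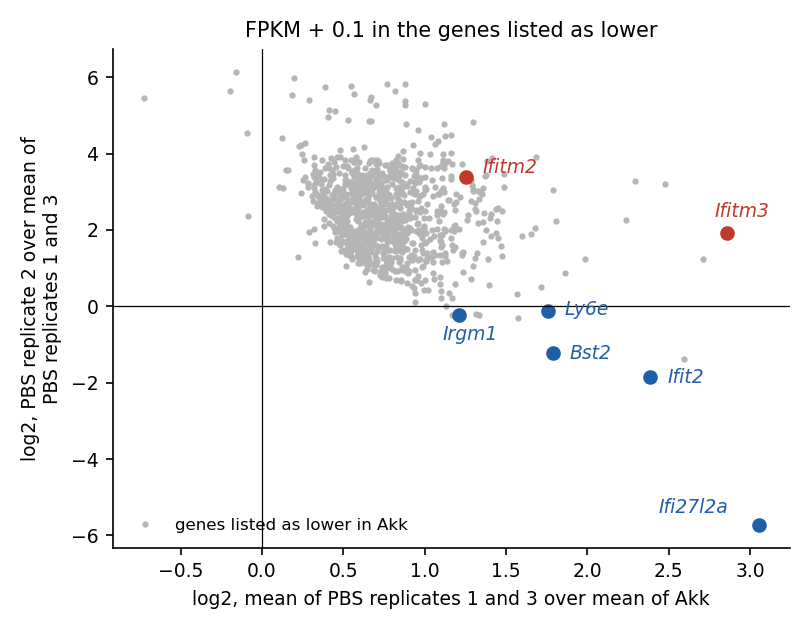
Each grey point is a gene listed as lower in Akk with a mean count of at least 50. The x axis gives the log2 ratio of the mean FPKM + 0.1 of PBS replicates 1 and 3 to that of Akk, and the y axis the log2 ratio of PBS replicate 2 to PBS replicates 1 and 3. Ifitm3 lies far to the right at 2.86 and Ifitm2 at 1.26, both above 0 on the y axis, and the 5 listed members of the interferon-inducible list (blue) are below 0.

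No other gene of the family was listed. Ifitm1, which encodes a paralogue found largely at the cell surface, Ifitm5, known from bone, and Ifitm6, Ifitm7 and Ifitm10 are not in the table, which leaves 2 of 7. Neither was any of 8 more distant relatives with the same domain, such as Prrt2 and Syndig1. Of the 33 protein-coding genes annotated within 250 kb of either gene, 2 were listed, and these were Ifitm2 and Ifitm3 themselves. Absence from the table can mean a p or fold short of the thresholds or no measurement at all, so no level can be given.

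None of 19 genes of interferon signalling was listed, a list that holds the receptors (Ifnar1, Ifnar2, Ifngr1, Ifnlr1), the kinases Jak1 and Tyk2, the factors Irf9 and Irf7, and the ligands. Of 51 interferon-inducible genes outside the family, 5 were listed, all as lower in Akk: Ly6e, Irgm1, Bst2, Ifit2 and Ifi27l2a. Their median fitted log2 fold change was -1.78 over the 6 libraries and -1.82 once PBS replicate 2 was left out, where all genes listed as lower had -2.19 and -0.78. By the quasi-likelihood test of edgeR with Benjamini-Hochberg adjustment over the table, 0 of the 5 passed, where 0% of all 1386 genes were called lower. Without PBS replicate 2, 4 passed (all but Ifit2), where 246 of the 1386 (17.7%) were called lower. The 1386 genes include 346 listed as higher in Akk, unlike the 5. All listed genes were selected on these same libraries, so neither the direction of the 5 nor their passing is independent evidence. Adjustment over genes selected in this way does not bound the share of false calls. With all libraries edgeR called 0 genes in either direction, 791 had an unadjusted p under 0.05, and DESeq2 called 786. Scaling factors computed from the listed genes, which move the median log2 fold change of all listed genes from -1.85 to -0.15 (RLE) or -0.17 (TMM), left all 5 and both Ifitm genes negative, with Irgm1 nearest to 0 (-0.16 and -0.13).

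None of these 5 genes had its highest value in PBS replicate 2, where Ifitm2 and Ifitm3 had theirs. Ifi27l2a, a small interferon-inducible membrane protein, had 33.1, 0.532 and 33.9 FPKM in PBS and 4.58, 4.00 and 3.24 in Akk, so that PBS replicate 2 was the lowest of all 6 libraries. Ifit2, whose protein carries tetratricopeptide repeats and is induced early by interferon, had 12.3, 3.60 and 14.0 FPKM in PBS and 1.89, 1.50 and 3.91 in Akk, with PBS replicate 2 inside the range of Akk.

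Bst2, or tetherin, which holds budding enveloped viruses at the cell surface, had 61.4, 28.2 and 70.5 FPKM in PBS and 20.7, 17.8 and 18.5 in Akk. Ly6e, a GPI-anchored protein that also acts on virus entry, had 113.5, 118.2 and 144.9 FPKM in PBS and 44.8, 32.6 and 36.9 in Akk. Irgm1, an immunity-related GTPase, had 63.5, 62.6 and 84.0 FPKM in PBS and 29.6, 27.3 and 38.6 in Akk. For these 3 genes all PBS libraries lay above all Akk libraries, as for 65% of all listed genes and 901 of the 1040 listed as lower. PBS replicate 2 lay between the other PBS libraries and Akk for Bst2, and beside the other PBS libraries for Ly6e and Irgm1.

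Set against the mean of PBS replicates 1 and 3, PBS replicate 2 was 3.76-fold for Ifitm3 and 10.6-fold for Ifitm2, and 0.915-fold for Ly6e, 0.849-fold for Irgm1, 0.427-fold for Bst2, 0.274-fold for Ifit2 and 0.0159-fold for Ifi27l2a. PBS replicates 1 and 3 over Akk gave 7.41-fold for Ifitm3 and 2.43-fold for Ifitm2, and 8.50-fold for Ifi27l2a, 5.41-fold for Ifit2, 3.47-fold for Bst2, 3.39-fold for Ly6e and 2.32-fold for Irgm1. In these 2 PBS libraries all 7 genes were thus above Akk. A high PBS replicate 2 was not particular to the Ifitm pair among interferon-inducible genes: Tgtp1, Tgtp2, Gvin1 and Plscr1, which are outside the list and were named after their values were seen, are also listed as lower in Akk and were highest there. Against the mean of PBS replicates 1 and 3, PBS replicate 2 was 3.61-fold for Tgtp1 and 2.69-fold for Tgtp2, near-identical GTPase genes whose reads may be split, 6.14-fold for Gvin1, a very large GTPase, and 1.33-fold for Plscr1, a phospholipid scramblase. Ly6a, named in the same way, was at 0.385-fold. The genes named in this way are not a full set, and none of them comes from the 346 genes listed as higher in Akk. The direction of interferon-inducible genes in general can therefore not be read from them.

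**Figure D4:**
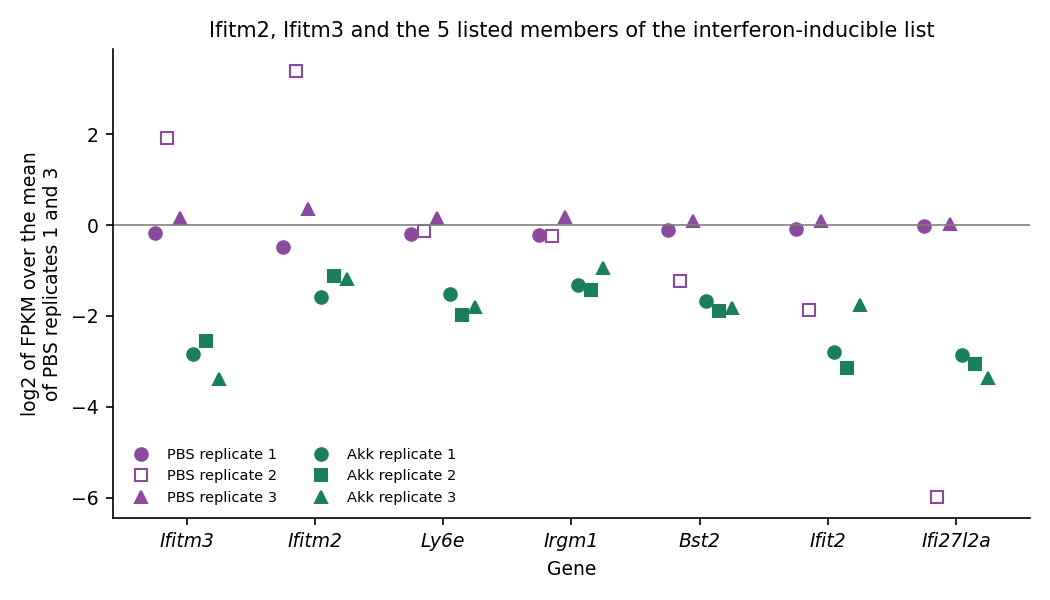
log2 of FPKM relative to the mean of PBS replicates 1 and 3 for Ifitm3, Ifitm2 and the 5 listed members of the interferon-inducible list, with 1 point per library. The open square is PBS replicate 2: it lies above 0 for both Ifitm genes (3.76-fold and 10.6-fold) and below 0 for these 5; interferon-inducible genes outside the list are not drawn.

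ISRE matches were also counted for these 5 genes where a promoter was in the RefSeq table. Bst2 and Irgm1 each had 2 overlapping matches before the RefSeq start, and Ifit2 had none in its 2 windows. A match to the gamma-activated site, given above for Ifitm3, was also found in Bst2 (at -136), Ifit2 (-241) and the family member Ifitm6 (-10). Irgm1, Ifitm2 and the remaining family members had none. Ifi27l2a and Ly6e were not matched in the promoter table.

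Of 8 genes whose products are known to modify or bind IFITM3, among them the palmitoyltransferase Zdhhc20 and the protease Zmpste24, only Nedd4 was listed. Nedd4, a ubiquitin ligase that ubiquitinates IFITM3 and many other proteins, had an FPKM of 6.49, 51.5 and 5.32 with PBS and 4.36, 3.42 and 3.14 in Akk. PBS replicate 2 stood 8.71-fold above the mean of PBS replicates 1 and 3, which was 1.62-fold above Akk. All PBS libraries lay above all Akk libraries for Nedd4, as for 65% of all listed genes.

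Crypt genes were highest in PBS replicate 2, as the Ifitm pair was. Of 17 Wnt target genes 6 were listed, all as lower in Akk and all highest in PBS replicate 2: Ephb2, Myc, Ccnd1, Znrf3, Cd44 and Sox9. Ephb2, a receptor that positions cells along the crypt, had 1.37, 10.1 and 1.53 FPKM in PBS and 0.754, 0.507 and 0.469 in Akk. By edgeR 0 of the 6 passed with all libraries (0% of all listed genes were called lower). Without PBS replicate 2, 1 passed, Ephb2, near the 17.7% of all listed genes, those listed as higher included. The median excess of the 6 in PBS replicate 2 was 7.17-fold.

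Listed markers of crypt cells were 5 of 14 for stem cells, 10 of 14 for Paneth cells and 21 of 22 for proliferation, all listed as lower and all highest in PBS replicate 2. The summed FPKM of the listed stem cell markers was 14.4 and 16.8 in PBS replicates 1 and 3, 638 in PBS replicate 2 and 8.12 to 11.1 in Akk. For Paneth cell markers it was 215 and 241, 8745 and 168 to 196, and for proliferation genes 79.6 and 64.4, 769 and 34.4 to 48.1. These markers and the Ifitm pair were all highest in PBS replicate 2, as were 1022 of the 1040 genes listed as lower. The part of these markers in the Ifitm values was not tested. The median excess of the 3 marker groups in PBS replicate 2 was 19.4-fold, 31.8-fold and 10.6-fold. It was 5.55-fold for all genes listed as lower, 10.6-fold for Ifitm2 and 3.76-fold for Ifitm3. By edgeR 0 of these markers passed with all libraries. Without PBS replicate 2 the numbers were 3 of 5, 0 of 10 and 6 of 21. Of all listed genes, those listed as higher included, 17.7% were called lower in that fit. None of these 36 markers had 0 counts in any library.

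The labelled cell type could be checked only on listed genes. Of 11 markers of epithelium Krt19 was listed, at 137 to 162 FPKM in Akk and 305 to 880 in PBS. Of 12 enterocyte markers Apoa4 was listed, as higher in Akk, at 3660 to 5057 FPKM in Akk and 467 to 3101 in PBS. Its lowest library was PBS replicate 2, at 0.19-fold of the mean of PBS replicates 1 and 3. Markers of endothelium (8), stroma (11), myeloid cells (12), the B lineage (8) and T cells with intraepithelial lymphocytes (12), cell types that can also express Ifitm genes, were not listed. Their levels were not analysed here, and the part of such cells in the Ifitm values was not tested.

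Across the 6 libraries the log2 FPKM (+ 0.1) of Ifitm3 and Ifitm2 had a Pearson r of 0.90, and 0.90 over the 5 libraries without PBS replicate 2. These are descriptions over few points that share the group difference and the high PBS replicate 2. Among 1297 listed genes with an Ensembl identifier and a mean count of at least 50, 919 had an r over 0.9 with Ifitm2 and 265 with Ifitm3. Without PBS replicate 2 the order turned, with 189 for Ifitm2 and 345 for Ifitm3, so these counts rest on that library.

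The 5 genes most like Ifitm3 over the 6 libraries were Hsh2d (r = 0.995), Gpx1 (0.982), Tcf23 (0.981), Syna (0.978) and Mrps28 (0.978). Hsh2d, an adaptor protein with an SH2 domain, had 2.41, 4.76 and 2.73 FPKM in PBS and 1.11, 1.42 and 1.03 in Akk. Gpx1, a glutathione peroxidase, had 143.1, 322 and 145.9 in PBS and 62.1, 80.2 and 66.9 in Akk. Without PBS replicate 2 the closest 5 were Tdp1, Ublcp1, Nr5a2, Pa2g4 and Mtrex, with r from 0.996 to 0.997, so no gene was among the closest both times.

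The 5 most like Ifitm2 over the 6 libraries were Rpl37a, Mettl7a1, Smpd4, Suv39h1 and Abhd14a, with r from 0.997 to 0.999. Rpl37a, a ribosomal protein gene, had 56.80, 225 and 75.01 FPKM in PBS and 34.6, 42.0 and 42.1 in Akk. Mettl7a1, which encodes a methyltransferase-like protein, had 4.58, 16.5 and 6.08 in PBS and 2.94, 3.45 and 3.32 in Akk. Without PBS replicate 2 they were Gpld1, Haus6, Mettl7a1, Smpd4 and Rpl37a, so 3 genes (Mettl7a1, Smpd4 and Rpl37a) were among the closest both times. In these 3 genes, as in Ifitm2, Akk replicate 1 was the lowest library and PBS replicate 3 was above PBS replicate 1.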

How the data were processed

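Trizol RNA and Illumina mRNA libraries were used, per the labels' protocols, and the genome build was mm10, per the submitters' processing notes. Not given in the sources used here were the aligner, counting program, strand setting and test. The file deposited by the authors holds read counts and FPKM for each of the 6 libraries, and the authors' p-value and log2 fold change per gene (Akk relative to PBS), per the file headers. Left out were 2 lines of annotation text.

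Genes and lists were chosen with earlier results of these data known. Relative depth was the median over 560 genes with counts of at least 200 of count divided by FPKM, and served as library size. Counts were fitted with edgeR 4.0.16 (R 4.3.3, quasi-likelihood, filterByExpr, which removed 0 genes), with Benjamini-Hochberg adjustment over all 1386 entries at 0.05; SE is the fold change over the root of F. The fit was tested on simulated data with a smaller spread than these libraries have and no outlying library. That test therefore does not cover a library like PBS replicate 2. TMM, RLE and upper-quartile factors, no filter, DESeq2 1.42.0, the replicate block and each library left out were alternatives. Named were both genes, listed members of fixed lists, and the 5 genes with the highest r. Sequences came from RefSeq (GRCm38.p6) promoters and GENCODE M21 transcripts; matches in the 300-base window and the position of the genes among those listed as lower, with PBS replicate 2 apart, were added after the data were seen. A planned comparison of proteins was not made. A gene of a fixed list is not reported here. Alignment used Biopython 1.88.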

Additional observations from a re-analysis of the deposited data

How the results depend on the processing

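The fold changes kept their sign in all 12 alternatives for each gene, but the genes were selected for this direction and their groups do not overlap. The alternative without a filter repeats the main fit, since the filter removed 0 genes. In 4 of the 12 the value moved by at least the pooled SD within groups: the 3 kinds of factors from this table, and without PBS replicate 2. The log2 fold change of Ifitm3 was -2.18 with RLE, -2.20 with TMM and -2.67 with upper-quartile factors taken from this table, and that of Ifitm2 -1.20, -1.27 and -1.76; a table of selected genes breaks what such factors assume. With 1 library left out at a time the values were -4.17 to -2.89 for Ifitm3 and -3.84 to -1.28 for Ifitm2, the value nearest 0 in both without PBS replicate 2. DESeq2 gave -3.83 and -3.34. The difference in the log2 ratio of Ifitm3 to Ifitm2 was -1.68 to -0.79 with each library left out (-1.68 without PBS replicate 2, -0.79 without PBS replicate 1), -1.18 from counts and -1.14 with a pseudocount of 1. The number of listed genes past the threshold, 0 with edgeR, was 6 with the replicate block, 786 with DESeq2 (262 adjusted p given as NA) and 0 to 734 with a library left out: leaving out PBS replicate 1, 2 or 3 gave 734, 270 and 732. The cause was not tested. With the replicate block the log2 fold changes were -3.56 and -2.30 and the ratio difference -1.17. Same-numbered libraries deviated from their group means with correlations of 0.26, -0.04 and -0.30, and not every library correlated best with its own number. Deviations from means of 3 libraries, with PBS replicate 2 far from the others, cannot tell whether the numbers pair the samples. The counts of 75 to 144 in Akk limit the precision of the ratio there.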
